A study of Mus musculus with 70 samples.

Results

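The clustered protocadherin genes lie side by side on mouse chromosome 18 in 3 groups, alpha (Pcdha), beta (Pcdhb) and gamma (Pcdhg). They were taken as all protein-coding genes of that chromosome in the GENCODE annotation of mm10 whose symbol begins with Pcdha, Pcdhb or Pcdhg, which gave 56 symbols among 20807 autosomal protein-coding genes. Chromatin contacts were called between 10-kb bins, and the transcription start sites (TSSs) of the 56 genes fell in 41 of the 35186 bins that hold a protein-coding TSS. The alpha genes (13 symbols, 11 bins) spanned chr18:36930001-37150000, the beta genes (22 symbols, 17 bins) chr18:37260001-37520000 and the gamma genes (21 symbols, 13 bins) chr18:37660001-37820000. One symbol, Pcdha11, stands for 2 gene identifiers with a bin each. Genes that start in the same bin share every contact value, and such bins are written with both names, as in Pcdhgb7/Pcdhga11.

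Clustered protocadherins are cell-surface adhesion proteins of the cadherin superfamily. Each variable exon of the alpha and gamma clusters has its own promoter and is spliced to constant exons shared by its cluster, whereas the beta genes are single exons with no constant part. Single neurons express a small, largely random choice of these promoters, which gives a neuron a surface identity used in self-avoidance of its branches. The choice is known to involve CTCF and cohesin, which bring a promoter together with distant enhancers that lie downstream of the alpha cluster and downstream of the gamma cluster.

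Contacts centred on promoters were mapped by H3K4me3 PLAC-seq, a proximity-ligation assay that enriches for ligation products carrying histone H3 lysine 4 trimethylation, a mark of active and poised promoters. The tissues came from C57BL/6N mice and were dissected whole, with no cell type enriched. At embryonic day 12.5 (E12.5) there were 4 neural tissues, namely FB (forebrain), MB (midbrain), HB (hindbrain) and NT (the neural tube), and besides these LM (limb), CF (the craniofacial prominence) and LV (liver). FB was also taken on each embryonic day from E13.5 to E16.5 and on the day of birth (P0), which makes 12 tissue-stages with 2 PLAC-seq replicates each. CTCF binding was measured by ChIP-seq in the same tissue-stages, with 2 libraries each except 1 for FB at P0. The labels call the CTCF pair in LV, and that in E14.5 FB, technical replicates and the other pairs biological ones. A call set was available for each of the 24 PLAC-seq libraries, and a pooled set for each tissue-stage, in which the authors had summed both replicates and downsampled them.

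A pair of bins that was not called has no value, because it fell below the calling threshold or because neither bin carried an H3K4me3 peak in that tissue. In these bulk tissues, fewer cells with a contact and fewer contacts per cell cannot be told apart. The libraries held 11396 to 63868 called interactions (median 25872) and the pooled sets 21945 to 79677, with LV lowest in both kinds. Marker genes were counted when past an adjusted p of 0.05 in the limma fits described below. Of the neural markers with enough interactions to be tested, 5 of 6 had more interactions in neural than in the other E12.5 tissues, Pou3f2 and Sox2 among them. Fewer were found for 2 of 6 tested limb markers (Hand2 and Prrx1) and 1 of 7 craniofacial markers (Twist1). Of all tested bins 14% were higher and 7.1% lower. The median log2 difference was 0.042 over the tested limb markers and -0.20 over the craniofacial ones. In LV, 1 of 2 tested liver markers (Epor) had more interactions than in the other tissues and the rest of the liver list had too few for the test, while 2 of 6 neural, 4 of 6 limb and 6 of 7 craniofacial markers tested had fewer and 0 had more. Of all tested bins 13.4% were higher and 15% lower in LV.

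The contacts of the protocadherin TSS bins ran almost entirely to the right on the chromosome, in the direction of transcription, and ended in a pair of short stretches without protocadherin promoters. Over the 12 pooled sets they made 405 calls between 120 distinct pairs of bins. The pooled sets held, at E12.5, 28 of these interactions in FB, 37 in MB, 36 in HB, 34 in NT, 31 in LM, 50 in CF and 16 in LV. The later FB sets held 36 on E13.5 and on E14.5, 37 on E15.5, then 29 on E16.5, and 35 in newborns. CF was thus highest and LV lowest, and LV also had the fewest interactions in all.

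Relative to the size of a call set the range was narrower. There were 4.39 (FB at E16.5) to 8.18 (CF) protocadherin interactions per 10000 called interactions in the pooled sets, with a median of 5.67, and LV stood at 7.29. Among the 24 libraries the share ran from 2.53 per 10000 in NT replicate 1 to 9.63 in LM replicate 1. The 4 LM and CF libraries, at 9.15 to 9.63, were above each of the other 20, the nearest of which was LV replicate 1 with 8.66. The pooled LM set did not share this rank: it stood at 5.53, below the median of the pooled sets. No test was made on a sum over these genes.

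**Figure D1:**
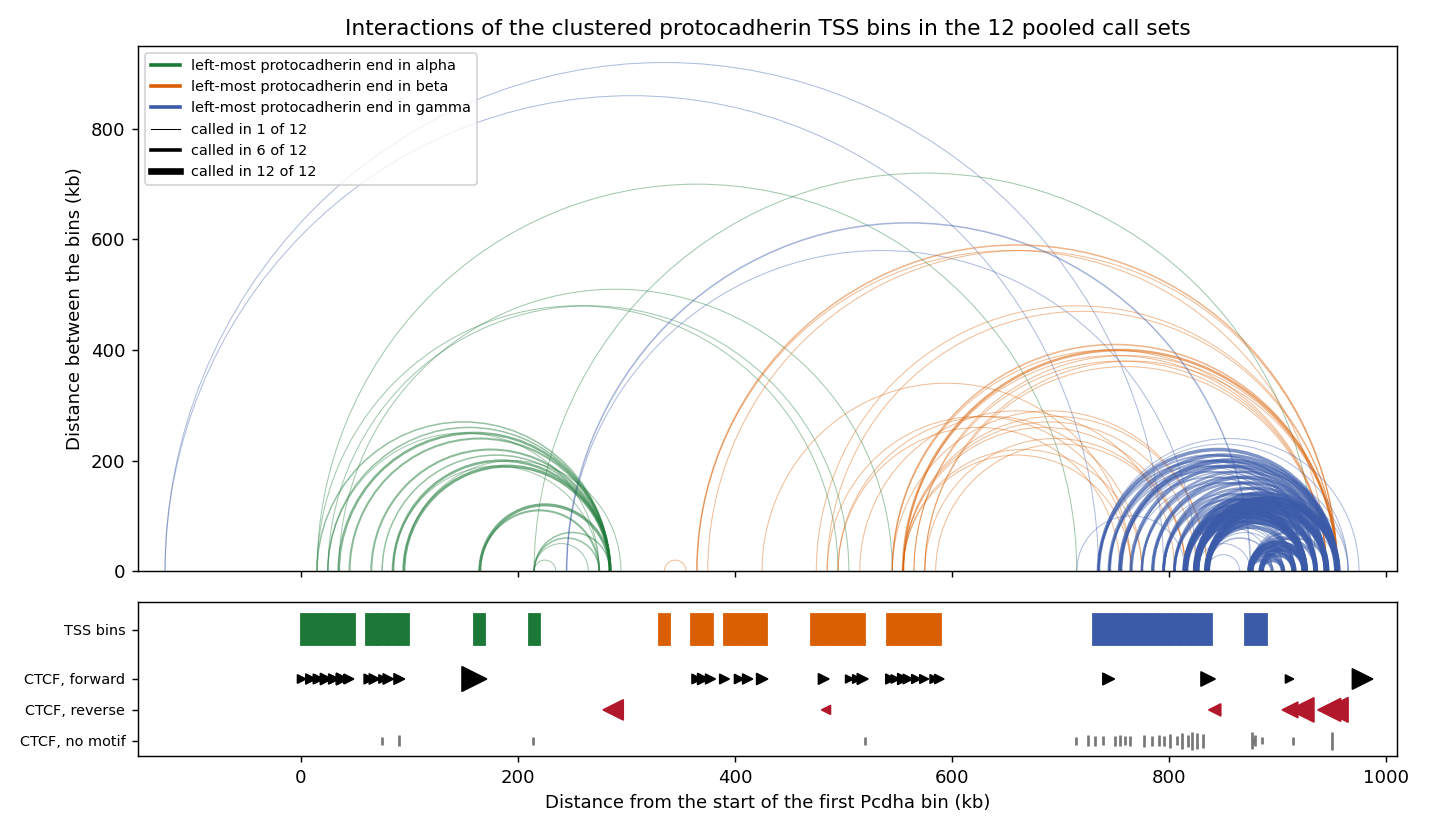
Arcs join the bins of the 120 distinct interactions of the clustered protocadherin TSS bins in the 12 pooled call sets, placed by distance in kb from the start of the first Pcdha bin; height is the distance between the bins, line width the number of tissue-stages with the call, and colour the cluster of the left-most protocadherin end. Below, boxes are TSS bins and marks are the 78 CTCF sites of the region by motif direction (mark size grows with the highest enrichment over input). Most arcs end either right of the gamma TSS bins (337 of 405 calls) or between alpha and beta (45 calls).

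The 2 landing stretches were used by different clusters. The stretch downstream of the gamma TSS bins was an end in 337 of the 405 calls (83.2%), 318 of them from gamma bins, 18 from beta bins and 1 from an alpha bin. The stretch between the alpha and beta bins was an end in 45 calls, 42 from alpha bins, 3 from gamma bins and 0 from beta bins. A call between a pair of protocadherin TSS bins was rare, with 17 in all, and 13 of these joined beta to gamma (6 in CF, 3 in LM, 3 in FB at E16.5 and 1 in FB at P0). Only 1 call joined 2 TSS bins of the same cluster, in FB at P0. Pairs less than 20 kb apart were not called by the authors, so contacts between neighbouring TSS bins could not appear.

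The bins that received these contacts, without being a protocadherin TSS bin themselves, numbered 19, of which 9 lay downstream of the gamma TSS bins and 6 between alpha and beta. The bin at chr18:37880001-37890000, inside Diaph1, which codes for a formin that assembles actin filaments, was contacted in all 12 tissue-stages by 20 protocadherin bins, 12 gamma and 8 beta. Its neighbour at chr18:37870001-37880000, also in Diaph1, was contacted in all 12 by 18 bins. The bin at chr18:37850001-37860000, which holds a TSS of Diaph1, was contacted in all 12 by 12 bins. That at chr18:37860001-37870000 was contacted by 11 and that at chr18:37840001-37850000, which overlaps the end of the gamma transcripts, by 5. Other annotated TSSs of Diaph1 lie in the partner bins at chr18:37890001-37900000 and chr18:37900001-37910000.

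Between alpha and beta, the bin at chr18:37210001-37220000 was contacted by 10 bins, all of them alpha, in 11 tissue-stages, and its neighbour at chr18:37200001-37210000 by 4 alpha bins in 6. LV had no contact to either. Downstream of the gamma TSS bins, the bins at chr18:37830001-37840000 (5 bins in 11 tissue-stages), chr18:37820001-37830000 (3 bins in 8) and chr18:37890001-37900000 (3 bins in 3) complete the 10 most shared partner bins. Those at chr18:37830001-37840000 and chr18:37820001-37830000 still overlap the gamma genes. A CTCF site lay in 8 of the 19 partner bins (42.1%), against 43.0% of all 109190 bins that took part in any interaction and 36.3% of the 84524 of these without a protein-coding TSS. A protein-coding TSS lay in 4 of the 19.

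The gamma cluster supplied most of the contacts. All 13 of its TSS bins were called at least once, and 4 of them were called in all 12 tissue-stages. Over the 12 pooled sets the gamma bins had 339 calls, the alpha bins 47 and the beta bins 35, where a call between clusters counts for both. Gamma contacts were also short, with a median distance of 120 kb and a median observed/expected ratio of 2.84. The ratio divides the read pairs of a call by those expected for its distance and local coverage. Alpha contacts had a median distance of 200 kb and a median ratio of 4.00, and beta contacts 390 kb and 4.17. Ratios exist only for called pairs, and a pair with few expected read pairs needs a higher ratio to be called. The medians therefore do not rank the clusters by contact strength, which was not tested.

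The last variable genes of gamma and the C-type gene Pcdhgc3 had the most contacts. The Pcdhgb6/Pcdhga10 bin was joined to 11 partner bins, Pcdhgb7/Pcdhga11 and Pcdhga12 to 10 each, and Pcdhgc3 to 9, each of these 4 in all 12 tissue-stages. Pcdhga1/Pcdhga2, at the other end of the cluster, was joined to 7 partner bins in 9 tissue-stages. Pcdhgc4/Pcdhgc5, next to Pcdhgc3, was joined to 4 in 11.

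The 2 pairs called in all 12 tissue-stages both lay here. Pcdhgb7/Pcdhga11 was joined to the Diaph1 bin 130 kb away (chr18:37880001-37890000) with observed/expected ratios of 2.25 (MB) to 3.70 (LM). Pcdhgc3 was joined to the bin 50 kb away at chr18:37850001-37860000, which holds a TSS of Diaph1. The ratios of this pair were 2.15 (LV) to 5.34 (LM), on 52 read pairs in LV and 165 in LM. It was called in 19 of the 24 libraries. LM was the highest tissue-stage for both pairs.

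A further 4 pairs were called in 11 of the 12 tissue-stages. The same bin at chr18:37850001-37860000 was joined to Pcdhgb6/Pcdhga10 (ratios 2.03 to 3.96, not called in LM), to Pcdhgb7/Pcdhga11 (2.64 to 5.06, not called in FB at P0) and to Pcdhga12 (2.40 to 5.56, not called in FB at E12.5). Pcdhgb7/Pcdhga11 was also joined to chr18:37870001-37880000 (2.13 to 3.84, not called in FB at E14.5). For Pcdhga12 the highest ratio of the 11 was that of LV, 5.56 on 74 read pairs, and the next was 4.36 on 50 read pairs in FB at E16.5. Since a missing value is not a low one, these ranges cover only the tissue-stages with a call.

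The alpha bins made 0 to 7 calls per pooled set, with 3 in FB, 4 in MB, 4 in HB, 6 in NT, 2 in LM, 2 in CF and 0 in LV at E12.5. In FB the number was 6 on E13.5, 3 on E14.5, 5 each on E15.5 and E16.5, and 7 in newborns. LV was the only tissue-stage with no alpha contact in its pooled set, which was also the smallest (21945 interactions). HB was the only E12.5 tissue with alpha calls in its separate libraries. In the separate libraries alpha calls were sparse, with 2 and 4 in HB, 10 and 5 in FB at P0, and single calls in 3 further FB libraries; the 2 FB libraries at P0 also held the most interactions of all 24, 63868 and 42973.

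Of the 11 alpha bins, 10 were called at least once, and Pcdha1/Pcdha2 at the left end was not. Pcdhac2, a C-type gene with a promoter of another kind than the alternate exons, was joined to 5 partner bins in 4 tissue-stages, with 4 of its 7 calls in NT. Pcdha3 and Pcdha4 were joined to 3 bins each in 4 tissue-stages, and Pcdhac1 and Pcdha12 to 2 each, in 7 and 5 tissue-stages. The contacts of Pcdha12 to chr18:37210001-37220000, 190 kb away, were called in MB, NT and FB at E13.5, E15.5 and E16.5 with ratios of 3.75 to 4.44 on 13 to 15 read pairs. Those of Pcdhac1 to the same bin, 120 kb away, were called in FB, LM and CF at E12.5 and in FB at E13.5 and E14.5, with ratios of 2.47 to 4.37 on 15 to 24 read pairs.

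Beta contacts were concentrated in few sets. The pooled sets held 10 in CF, 7 in LM, 4 in NT, 1 in FB and 0 in MB, HB and LV at E12.5, and in FB 0 on E13.5 and E14.5, 6 on E15.5, then 3 on E16.5, and 4 in newborns. The separate libraries held 1 in LM replicate 2 and 2 in FB at P0 replicate 1, and 0 in the other 22, so these pooled calls had almost no replicate support. The Pcdhb17/Pcdhb18 bin had the most, 7 partner bins and 10 calls, 5 of them in CF. Its contact to chr18:37880001-37890000, 400 kb away, was called in 4 tissue-stages and had, in FB at E15.5, the highest ratio of all 405 calls, 8.53 on 17 read pairs. Pcdhb15/Pcdhb16 had 4 partner bins, and Pcdhb11 and Pcdhb20 had 3 each. Pcdhb5, Pcdhb6 and Pcdhb7 had no call.

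**Figure D2:**
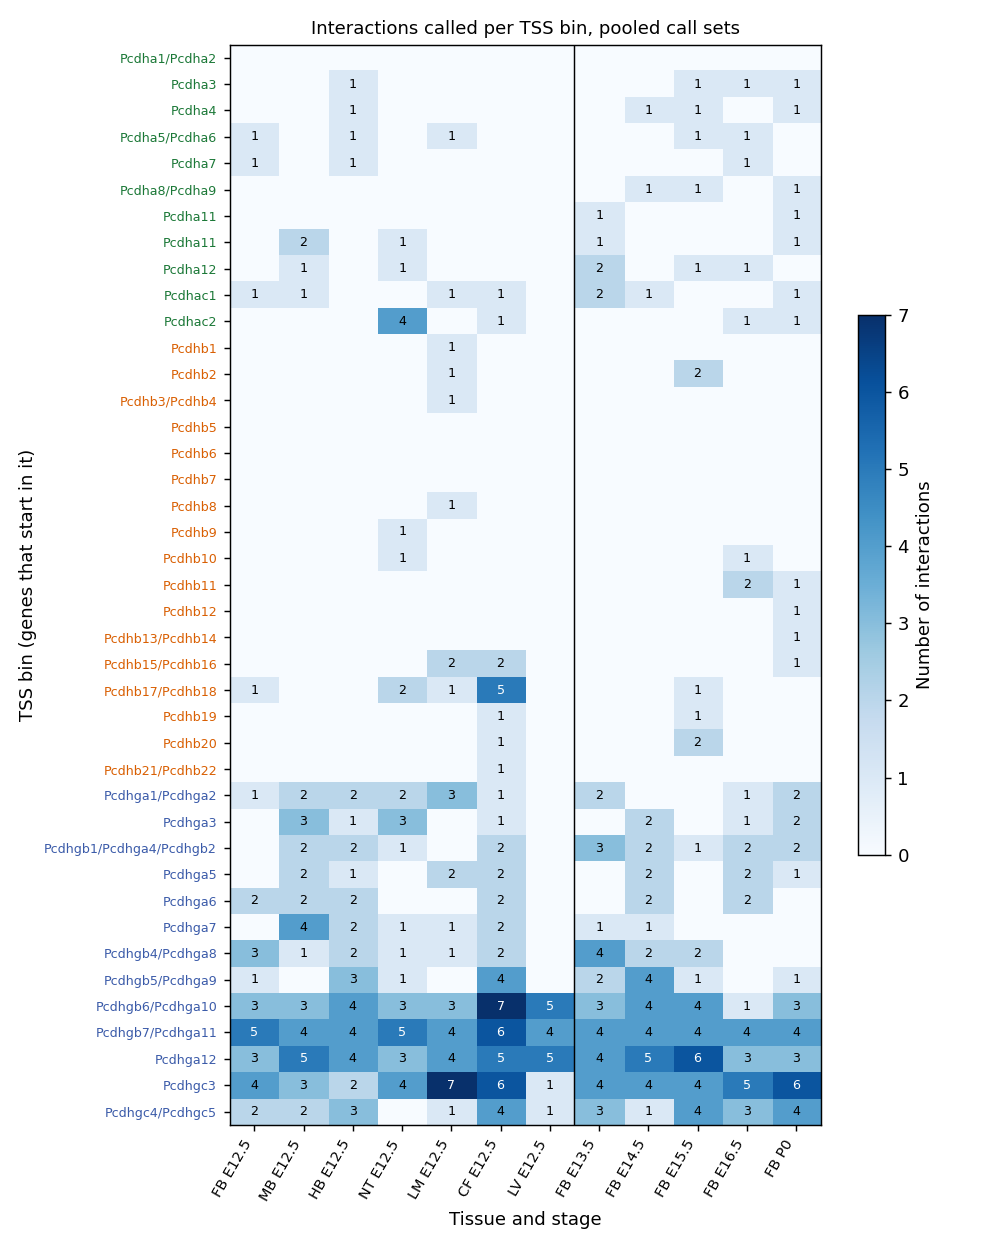
Each cell gives the number of interactions called for a protocadherin TSS bin (rows, in chromosomal order, with alpha in green, beta in orange and gamma in blue; the 2 gene identifiers of Pcdha11 have a row each) in a pooled call set (columns, with the 7 tissues at E12.5 left of the line and the later FB stages right of it); empty cells are 0. The last 5 gamma bins are filled in nearly every column, while the LV column has no call outside them.

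In all, 13 to 21 of the 41 protocadherin TSS bins had a call in the pooled sets other than LV, where 5 did. As a share this was 12.2% to 51.2% (median 40.2%), against 22.6% to 44.7% (median 36.9%) of all TSS bins, with LV lowest in both. The calls were shorter than usual, with set medians of 105 to 135 kb against 170 to 310 kb for all interactions, and lower in ratio, with set medians of 2.56 to 3.31 against 3.03 to 3.64. Of the 120 pairs, 26 (21.7%) were called in 6 or more tissue-stages and 53 (44.2%) in 1, against 15.5% and 48.3% of all 248620 pairs. Pooled protocadherin calls were found again in at least 1 replicate of their tissue-stage in a median of 54.6% (32.4% to 75.0%), against 56.0% of all calls. These shares are descriptions, without a test.

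Differences between tissues at E12.5 were tested across all TSS bins on the number of called interactions per library, scaled to the median library total, with limma on log2 of the scaled number plus 1. A TSS bin needed a mean scaled number of at least 1, and 5 of the 41 protocadherin bins passed, all at the right end of gamma: Pcdhgb6/Pcdhga10, Pcdhgb7/Pcdhga11, Pcdhga12, Pcdhgc3 and Pcdhgc4/Pcdhgc5. The other 36, among them every alpha and beta bin, had too few interactions in the libraries to be tested. The p-values measure the spread between these libraries and not that between tissues. Both libraries of a tissue entered as separate values, and LV is a single tissue.

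Pcdhgc3, a C-type gene whose promoter is not among those chosen at random, had fewer interactions in neural tissues than in LM and CF. It had 1 and 4 called interactions in FB, 3 and 2 in MB, 4 and 2 in HB, and 3 and 4 in NT, against 7 and 9 in LM and 5 and 4 in CF. The scaled number averaged 2.62 ± 1.40 in the 8 neural libraries and 7.78 ± 3.31 in the 4 LM and CF libraries (SD). Scaled numbers of 1.14 to 5.22 in neural tissue and 4.42 to 11.8 in LM and CF overlapped slightly, and both LM libraries were above all others. Pcdhgc3 fell by 1.29 on the log2 scale (SE 0.334, adjusted p = 0.0109, limma) and was the only 1 of the 5 bins called, where 22.2% of all 4346 tested bins were called and 9.27% were called as lower. Without LM replicate 1 the adjusted p was 0.0539.

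With LV added to the non-neural side, Pcdhgc3 was not called (log2 difference -0.28, adjusted p = 0.740, limma), since LV had 0 interactions there in both libraries. In this comparison 1 of the 5 bins was called, where 21.1% of all 4351 tested bins were called and 7.1% as lower. It was Pcdhga12, the last variable gene of the gamma-A type, with 1 and 0 called interactions in FB, 4 and 2 in MB, 4 and 3 in HB, and 1 and 3 in NT, against 3 and 4 in LM, 2 and 2 in CF, and 6 and 3 in LV. Its scaled number averaged 1.72 ± 1.10 in the 8 neural libraries and 4.35 ± 2.18 in the 6 others (SD), with overlapping ranges. Pcdhga12 fell by 1.00 on the log2 scale (SE 0.350, adjusted p = 0.0475, limma), but the call was lost in 16 of 21 alternatives, in which the adjusted p reached 0.319. These were 6 other settings and the omission of either FB, HB, LM or LV library, of MB replicate 2 or of NT replicate 1.

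In each LV library only 3 of the 41 protocadherin TSS bins had a called interaction, the tested bins of variable gamma genes. The 2 bins of the gamma C-type genes had none, and neither had any alpha or beta bin or any other gamma bin. Pcdhgc3 had 0 called interactions in both LV libraries, against 1 to 9 (mean scaled number 4.11) in the 12 libraries of the other E12.5 tissues, so the groups did not overlap. The filter took the mean over both groups, so a bin at 0 in LV could pass it only through the other tissues. The direction of its difference was thereby fixed. Pcdhgc3 was called (adjusted p = 0.00981, limma), as 1 of the 5 bins, where 28.4% of all 4351 tested bins were called and 15% as lower. No fold is given against 0, and without either LV library the call was lost, with adjusted p of 0.0877 and 0.117. The pooled LV set still held 1 interaction of Pcdhgc3, the contact to chr18:37850001-37860000 given above.

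At Pcdhgc4/Pcdhgc5 both LV libraries were also at 0, against 0 to 3 in the other 12 (adjusted p = 0.0869, limma), so this bin too was tested only through the other tissues. The tested bins of variable gamma genes had positive differences, and none of them was called. Pcdhga12 had 6 and 3 called interactions in LV, and its mean scaled number was 6.59 in LV and 2.22 in the other tissues, a log2 difference of 1.35 that missed the threshold (SE 0.504, adjusted p = 0.0540, limma). It passed at an observed/expected ratio of at least 3 (adjusted p = 0.00740), and without FB replicate 2, LM replicate 1 or LM replicate 2 (0.0308 to 0.0413). Pcdhgb6/Pcdhga10 averaged 3.94 in LV and 1.96 in the others, and Pcdhgb7/Pcdhga11 5.05 and 2.57, with adjusted p of 0.240 and 0.156 in limma. LV had the fewest interactions in all, and the part of this in the differences was not tested beyond the scaling.

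**Figure D3:**
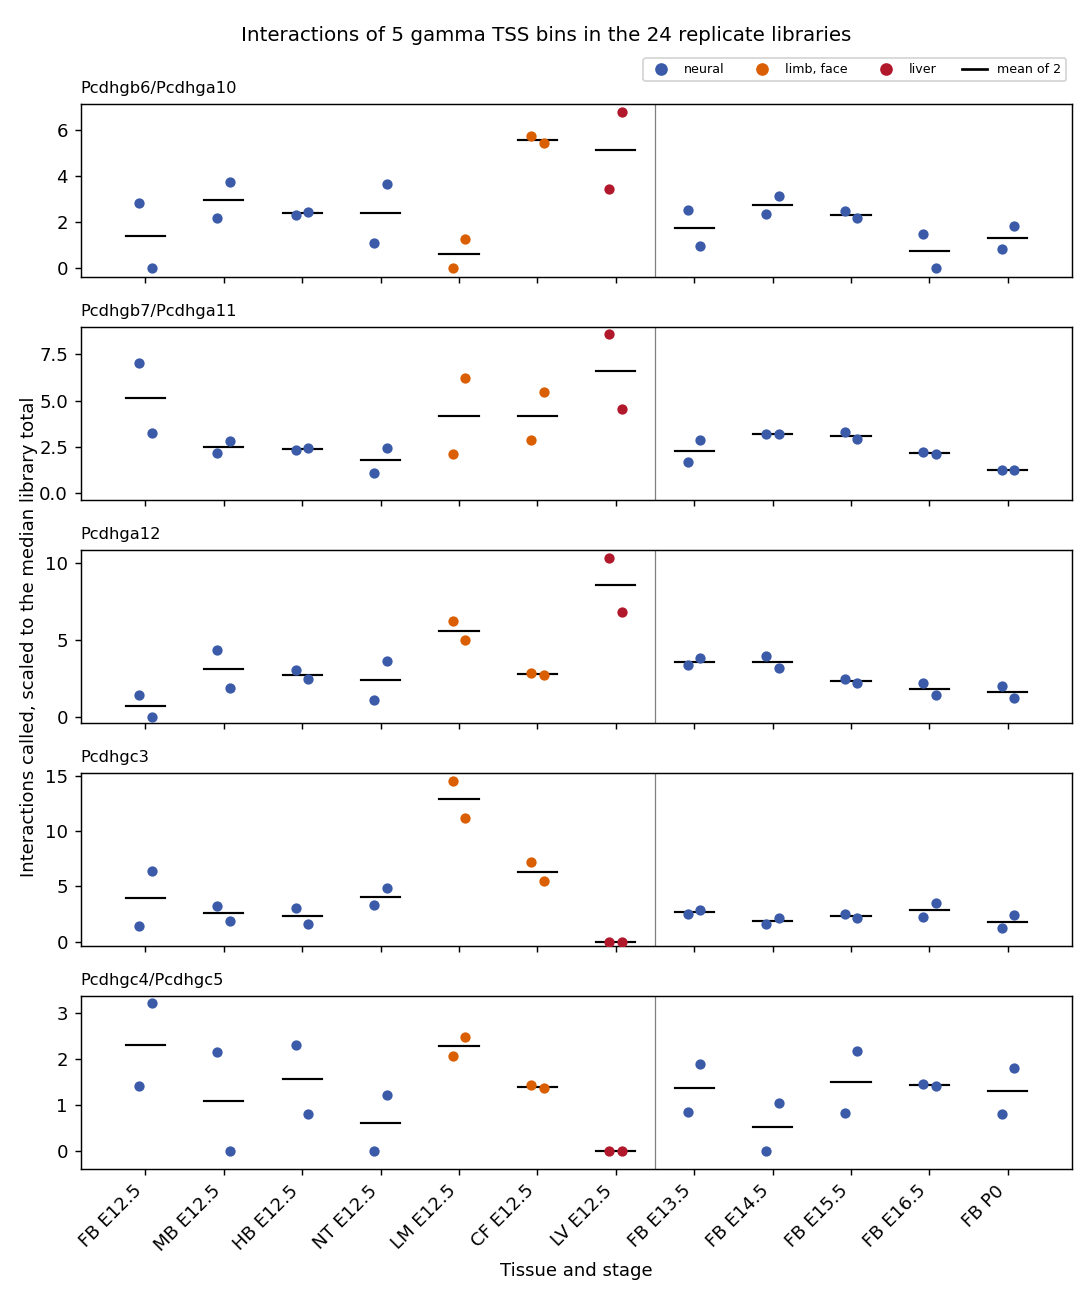
Points are the 24 PLAC-seq libraries and bars the mean of the 2 replicates; the vertical axis is the number of called interactions of a gamma TSS bin scaled to the median total of the 24 libraries, with the E12.5 tissues left of the grey line (neural in blue, LM and CF in orange, LV in red) and the later FB stages right of it. At Pcdhgc3 both LM libraries (7 and 9 interactions called) are highest and both LV libraries are at 0.

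Along FB development no protocadherin bin passed the test between the late stages (E16.5 and P0) and the early ones (E12.5 and E13.5). Of the 5 tested bins 0 were called, and 0 were below an unadjusted p of 0.05 in limma or called by edgeR, where 11% of all 6160 tested bins were called, 7.42% as higher and 3.62% as lower. The lowest adjusted p was that of Pcdhgb7/Pcdhga11 (0.215, limma), with 3 and 3 called interactions at E16.5 and 3 and 2 at P0, against 5 and 2 at E12.5 and 2 and 3 at E13.5. Its scaled number averaged 2.15 ± 0.699 late and 4.72 ± 2.96 early (SD, n = 4 libraries each), with ranges of 1.54 to 2.81 late and 2.14 to 8.98 early that overlapped.

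The strength of contacts was compared on log2 observed/expected at pairs called in every library, which none of the protocadherin pairs was, so 0 were tested in either comparison (4.8% of the 2019 pairs tested in neural tissue against LM and CF were called, and 4.65% of 5351 in late against early FB). When pairs called in 3 of 4 libraries of each group were let in, 3 protocadherin pairs could be tested in neural tissue against LM and CF, where 2.77% of 5060 pairs were called, and 4 in late against early FB, where 2.34% of 10556 were; 0 were called in either. Pcdhgc3 to chr18:37850001-37860000 had a mean log2 ratio of 1.51 in neural tissue and 1.72 in LM and CF, a difference of -0.21 (SE 0.149, adjusted p = 0.540, limma). Pcdhga12 to the same bin had 1.71 late and 1.37 early in FB, a difference of 0.34 (SE 0.172, adjusted p = 0.296, limma).

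Over the 56 genes together, promoters held CTCF peaks more often than those of all genes did. A CTCF peak lay within 1 kb of a TSS of 29 to 45 of the 56 genes (51.8% to 80.4%, median 66.1%), against 29.8% to 47.3% (median 35.1%) of all 20807 genes. The numbers ran over the lists from 6 to 13 for the 13 alpha symbols, from 6 to 15 for the 22 beta genes and from 14 to 19 for the 21 gamma genes. The beta share was below that of all genes in LV (27.3%, against 29.8%) and NT (31.8%, against 34.8%) and little above it in FB at E13.5 (36.4%, against 33.7%) and E16.5 (36.4%, against 35.1%). Merged over the 12 lists, 78 sites lay in the 990 kb from the first alpha bin to 10 bins past the last gamma bin, a limit set after the partner bins had been seen. Of these, 20 (25.6%) were in all 12 lists, against 31.2% of 86127 autosomal sites, and LV had the fewest (41) and FB at E15.5 the most (64).

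The direction of the CTCF motif differed between promoters and landing stretches. A motif pointing right, the forward direction and that of transcription, was found at 18 of the 21 alpha sites within 1 kb of a TSS and at all 19 beta sites, and a reverse motif at 0 of either. A motif here is a match to a 19-bp matrix estimated from the strongest FB peaks of these data, and no curated CTCF matrix was used, so a site without a match may still hold a CTCF motif. The site between alpha and beta carried a reverse motif, and downstream of the gamma TSS bins 5 of 9 sites did, 2 were forward and 2 had no match. At the gamma promoters 19 of 21 sites had no match to this matrix and 2 were forward. Over the region 62.8% of sites had a match, against 77.8% of all autosomal sites. With a motif estimated from peaks spread over all ranks of enrichment, an alternative chosen after seeing these counts, 18 of the 21 gamma promoter sites still had no match.

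Among the sites in all 12 lists, those named here were chosen after their values were seen. The forward site at the Pcdhac1 promoter (chr18:37089357-37090387) had enrichments over input of 35.7 in FB, 40.9 in MB, 24.3 in HB and 26.9 in NT, against 17.1 in LM, 25.1 in CF and 7.48 in LV. The reverse site between alpha and beta (chr18:37216855-37219008), in the bin that alpha genes contacted, had 27.9, 22.2, 28.6 and 25.7 in FB, MB, HB and NT, against 21.5, 24.7 and 6.19 in LM, CF and LV. LV was lowest at both of these sites. At the forward site by the Pcdha4 promoter (chr18:36953073-36953405), also in all 12 lists, LV was highest with 10.2, against 5.19 to 7.61 elsewhere. A relation of these values to the alpha contacts was not tested.

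Downstream of gamma the reverse site at chr18:37851548-37853150, in a bin that holds a TSS of Diaph1, had enrichments of 23.9 (FB at P0) to 56.6 (FB at E14.5), with 41.6 in LV. The reverse site at chr18:37882895-37884492, in the bin contacted by 20 protocadherin bins, had 18.3 to 58.1, with 20.5 in LV. A site without a match in the same bin (chr18:37880011-37881016) had 4.33 in LV and 15.6 to 30.0 elsewhere. FB at E14.5 was highest at each of these 3. These enrichments are not centred by list, and the median over the sites of the region was also highest in FB at E14.5 (8.29). Over the whole list the median was 10.3 in FB at E14.5 and 6.03 in FB at P0.

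The promoter sites of Pcdhgb6, Pcdhgb7, Pcdhgc3 and Pcdhga12 were in all 12 lists, the first 3 without a match to the matrix and that of Pcdhga12 (chr18:37765528-37766272, enrichments of 5.38 in LV to 17.7) with a forward one. The Pcdhgb7 site had enrichments of 11.5 to 32.6 and the Pcdhgb6 site 9.59 to 23.6, with LV highest at Pcdhgb6. The Pcdhgc3 site, 19 bp from the TSS, had 5.93 in LV, the lowest of the 12, and 6.41 to 28.2 in the other tissue-stages. FB at E16.5, at 6.41, was close to LV at this site.

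**Figure D4:**
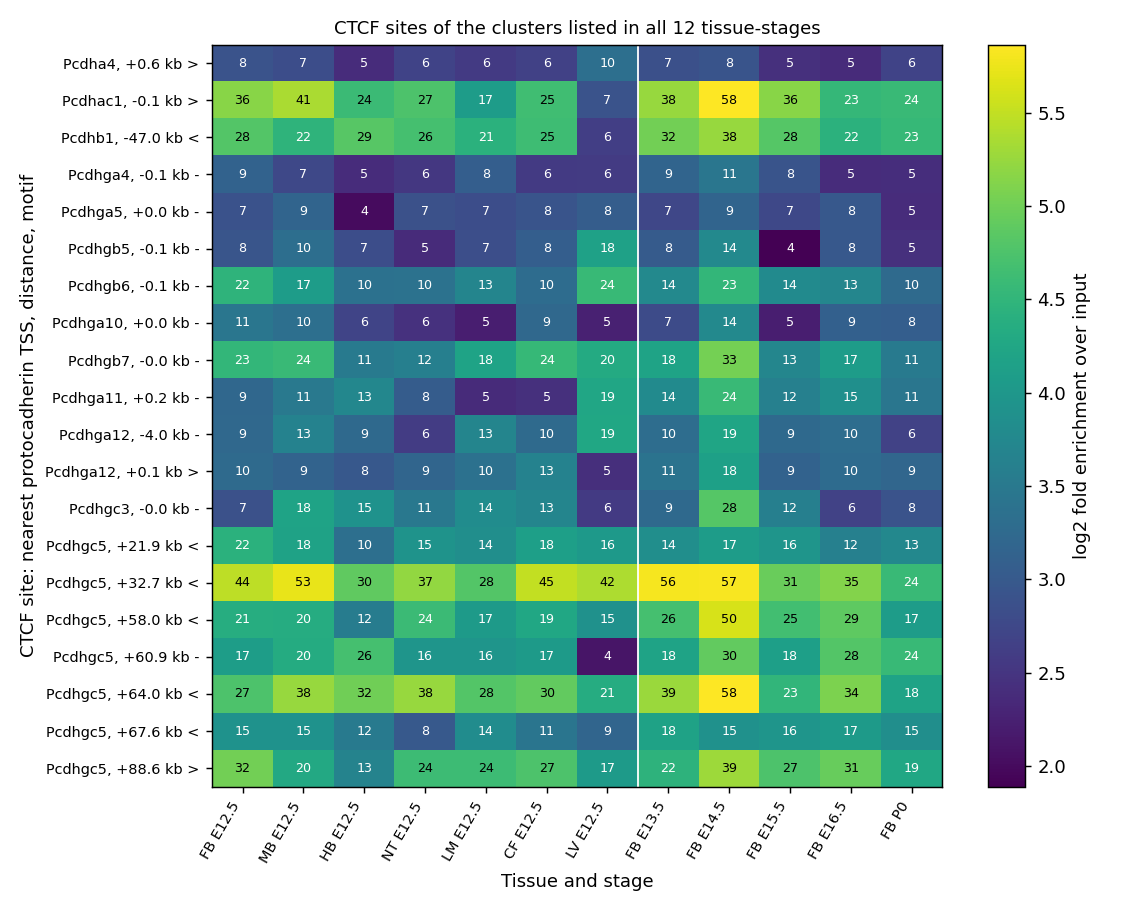
Cells give the fold enrichment over input (rounded; colour on a log2 scale) of the 20 CTCF sites of the clusters that were in all 12 lists, by tissue-stage; rows are in chromosomal order and named by the nearest protocadherin TSS, the distance to it in kb and the motif (> forward, < reverse, - no match). The LV column is lowest at the Pcdhac1 promoter (7.48) and at the site 47 kb left of Pcdhb1 (6.19) and highest at Pcdhgb6 (23.6).

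None of these differences in CTCF passed the test across all sites. With 1 list per tissue, 0 of the 20 sites were called in neural against non-neural tissues and 0 in late against early FB, where 0% of 26888 sites were called in limma; 1827 and 2758 of all sites, and 3 and 2 of the 20, had an unadjusted p below 0.05. The Pcdhac1 promoter site had the largest difference of the 3, 1.09 higher in neural tissues on the log2 scale (SE 0.305, adjusted p = 0.601, limma), followed by chr18:37880011-37881016 (0.90, adjusted p = 0.704) and the site between alpha and beta (0.81, adjusted p = 0.709). Without the LV list these differences were 0.59, 0.26 and 0.17 (adjusted p = 0.531, 0.855 and 0.901). In late against early FB, chr18:37880011-37881016 was 0.76 higher (adjusted p = 0.409, limma) and chr18:37851548-37853150 had a difference of -0.56 (adjusted p = 0.471, limma). The test could not single out a site in these lists, and this does not show that CTCF binding was the same.

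Interactions of the protocadherin bins had CTCF at their ends more often than other interactions did. Both bins held a CTCF peak of the same tissue-stage in 269 of the 405 calls (66.4%; 52.8% to 75.7% by set), against 32.9% of all 540551 calls with a TSS bin (27.1% to 38.9%), and the ranges did not overlap. Neither bin held a peak in 2.96%, against 13.4%. A forward motif on the left and a reverse motif on the right, the convergent layout, was found in 77 calls (19.01%; 12.9% to 27.0%), against 14.03% (12.2% to 18.4%), with overlapping ranges. Among calls with a peak in both bins these were 77 of 269, against 75819 of 177693, a lower share. A reverse motif on the left and a forward motif on the right was found in 0 calls, against 4.28%. Most gamma promoter sites had no match to the matrix, so that many of the calls could be given no layout. Bins with several promoters can hold several peaks, and calls that share a bin are not independent, so no test was made.

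**Figure D5:**
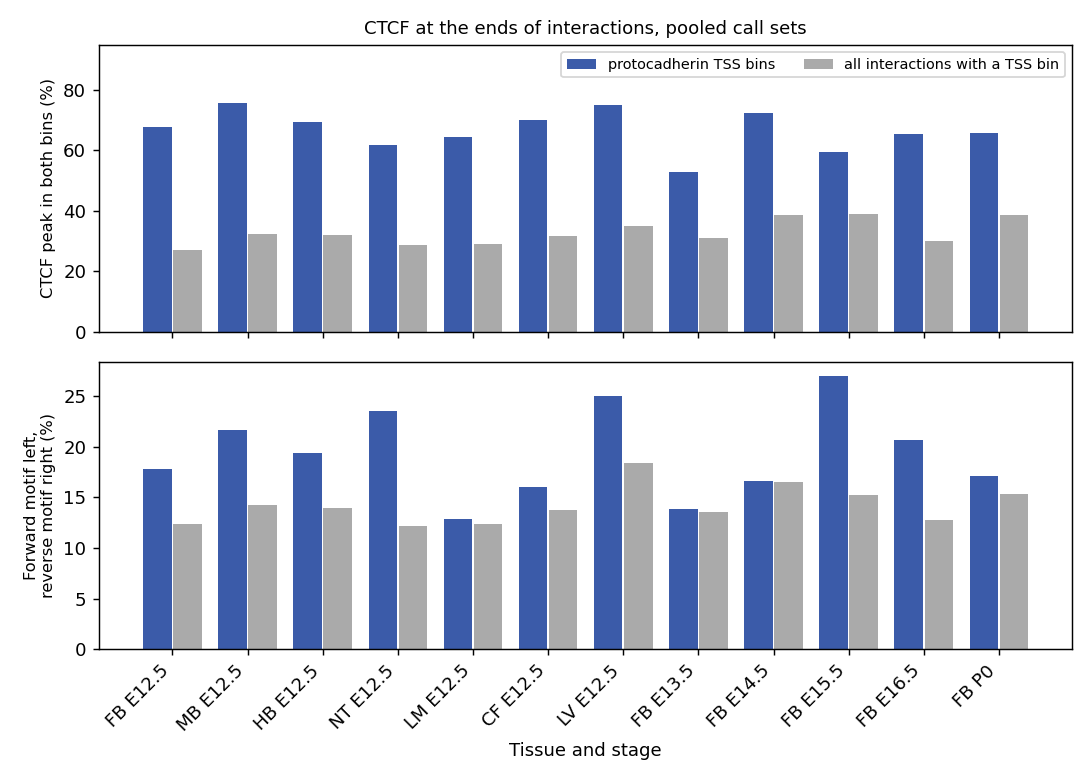
Bars give the share of interactions in each pooled call set with a CTCF peak in both bins (upper) and with a forward motif in the left bin and a reverse motif in the right bin (lower), for interactions of the clustered protocadherin TSS bins (blue) beside all interactions with a TSS bin (grey). The blue bars of the upper panel lie at 52.8% to 75.7%, all above the grey ones.

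The lists of related genes were tested in the same fits through their most interacting TSS bin, beside shares of 21.1%, 22.2%, 28.4% and 11% of all tested bins. Among 10 non-clustered protocadherins, 1 of 4 tested was higher in neural than in non-neural tissues (Pcdh8, mean scaled number 6.49 and 1.73), and in neural tissue against LM and CF 1 of 4 was lower (Pcdh18, 1.28 and 26.1). In LV against the other tissues Pcdh7 was higher (20.1 and 3.04) and Pcdh8 lower (0 and 5.19), and in late against early FB 0 of 6 tested were called. Of 14 large cadherins, which also mediate adhesion, 9 were tested: 5 were higher and 0 lower in neural than in non-neural tissues (Fat3, Celsr2 and Cdh13 lead), 4 were higher and 2 lower in neural tissue than in LM and CF (Fat3 higher, Cdh11 and Fat1 lower), 0 were higher and 5 lower in LV, and 2 were higher (Cdh11 and Cdh13) and 1 lower (Celsr2) in late FB.

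For the 2 remaining lists the shares of all tested bins called were again 21.1% and 22.2% in the neural comparisons, 28.4% in LV and 11% in late FB. With so few genes tested, the counts do not set these lists apart. Of 15 such genes for CTCF, cohesin and silencing factors, 6 were tested in neural against non-neural tissues and 1 was lower (Dnmt1, the maintenance DNA methyltransferase, 0.221 and 4.22). Of 5 tested in neural tissue against LM and CF, 1 was lower (Pds5b, a cohesin regulator), of 6 in LV 2 were higher (Dnmt1 and Pds5a), and of 7 in late FB 0 were called. Of 12 intracellular partners of protocadherins, 4 were tested at E12.5 with 0 called in both neural comparisons. In LV 1 of the 4 was higher (Ptk2b, a kinase bound by protocadherin tails) and 2 lower (Ctnnb1 and Wasf1), and in late FB 1 of 6 was higher (Ptk2, the related focal adhesion kinase).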

How the data were processed

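The members, gene lists and tests were chosen with earlier results of these data known. The authors aligned reads to mm10 (BWA, SAMtools), counted read pairs between 10-kb bins with an H3K4me3 peak at one or both ends, and called interactions with MAPS. For each call the deposited files hold a read-pair count, the expected signal from the regression and an FDR (a p-value adjusted over pairs), kept by the authors below 1%, at an observed/expected ratio of at least 2 and 20 kb to 1 Mb apart, on 19 autosomes. The deposited CTCF peaks, called with MACS2 on pooled libraries (FB at P0 on 1 library), give a fold enrichment ratio over input and a −log10 q-value. The version of each of these tools is not given in the sources used here. The series holds 24 PLAC-seq, 23 CTCF and 23 input samples; 12 CTCF lists were used, with 11 second lists as an alternative, since 1 list had a code that matched no label.

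TSSs of all transcripts of protein-coding genes (GENCODE M21) were put in 10-kb bins, each counted once. The number of called interactions per TSS bin and library was scaled to the median library total and fitted with limma 3.58.1 (trend option) in R 4.3.3 on log2 of the number plus 1, for bins with a mean of at least 1, with Benjamini-Hochberg adjustment over all bins and a threshold of 0.05. Numbers of calls are not read counts, so edgeR 4.0.16 was an alternative only. CTCF sites were peaks merged over lists at an overlap of 1 bp, and log2 fold enrichment, centred by list, was fitted at sites in all 12. The CTCF motif was a 19-bp matrix estimated from the 5000 strongest FB E12.5 peaks and scored at p of 0.0001 per position. Each fit was tested on simulated data. Other tools were Python 3.11.15, numpy 2.4.6, pandas 2.3.3 and matplotlib 3.10.9.

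Named bins were up to 5 per cluster with the most partner bins (ties ordered by tissue-stages, then by calls, otherwise left out), every bin past a threshold, up to 10 partner bins by tissue-stages and then bins contacted, and up to 3 genes per other list and comparison past the threshold. Lists were non-clustered protocadherins, CTCF, cohesin and silencing genes, intracellular partners, large cadherins and tissue markers. Over the replicates, deviations of same-numbered libraries correlated by -0.0655 to 0.0329 (21 pairs of tissues) and -0.0475 to 0.0765 (15 pairs of FB stages), so replicate numbers did not pair the libraries. No sequence of these genes is printed.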

Additional observations from a re-analysis of the deposited data

Results flagged for a closer look

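At Pcdhgb7/Pcdhga11, FB replicate 1 at E12.5 stood apart from the other 7 neural E12.5 libraries. It had 5 called interactions, a scaled number of 5.40, and the next library had 2.47. Of 30 sets of values over gamma bins and groups of libraries this was the only one flagged for a library that far from the rest. The 30 include the neural E12.5 libraries in both neural comparisons, which differ here only in scaling, so not all sets are distinct. A repeated set was flagged once. Of 20 CTCF sites over the neural lists 0 had such a list. For distinct sets chance gives about 1 in 20.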

How the results depend on the processing

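Of the comparisons, the counts of protocadherin bins called rest on few libraries. In neural against non-neural tissues the 1 bin called (Pcdhga12) became 0 without scaling, with edgeR, with no filter on low numbers, with a pseudocount of 0.5, with summed read pairs (which also uses another filter) and with the replicate block (adjusted p = 0.0554, limma), and was 0 to 1 without single libraries (log2 difference -1.16 to -0.82). The replicate block changed no other call of a protocadherin bin, and the block pairs nothing here since the numbers did not pair. In neural tissue against LM and CF the 1 bin called (Pcdhgc3) became 0 with an observed/expected ratio of at least 3, where Pcdhgc3 was no longer tested, and 0 to 1 without single libraries. In LV against the others it became 2 with summed read pairs and 0 to 2 without single libraries; leaving out 1 LV library assumes that the other varies like the rest. The cause of these changes was not tested.

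The median of 5.67 protocadherin interactions per 10000 was 3.71 at a ratio of at least 3, and the 19 partner bins were 8 when a call in both replicates was required, 8 of the 10 most shared ones kept. The counts of bins called were lower in 20 alternatives and higher in 4, as given above. In the remaining 95 these counts and shares stayed in the same range. Many of the 95 were counts of 0 that stayed at 0, as for contact strength, where 0 protocadherin pairs were tested as reported. At a ratio of at least 3 the bin called in LV was Pcdhga12 (adjusted p = 0.00740, limma) and not Pcdhgc3, which was not tested there. Differences of bins that were not called changed sign in 22 alternatives. In neural against non-neural tissues these were Pcdhgb6/Pcdhga10 without scaling (0.023), Pcdhgc3 without scaling (0.020), with summed read pairs (1.28) and without single libraries (-0.68 to 0.055), and Pcdhgc4/Pcdhgc5 without single libraries (-0.084 to 0.21). In neural tissue against LM and CF they were Pcdhgb6/Pcdhga10 without scaling (0.15), with summed read pairs (0.37) and without single libraries (-0.58 to 0.25). In late against early FB they were Pcdhgb6/Pcdhga10 without scaling (0.15) and without single libraries (-0.76 to 0.060), Pcdhga12 with edgeR (-0.22) and without single libraries (-0.50 to 0.37), Pcdhgc3 without scaling (0.40) and without single libraries (-0.57 to 0.017), and Pcdhgc4/Pcdhgc5 without scaling (0.40), with summed read pairs (0.39) and without single libraries (-0.44 to 0.0019).

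Over all TSS bins, the 1234 called in LV were 641 with edgeR, 2658 without the filter and 269 to 1530 without single libraries (419 and 269 without LV replicate 1 or 2), the 680 in late against early FB were 1101 without scaling, 377 with edgeR and 233 to 922 without single libraries (233 to 426 without either E12.5, either P0 or the second E16.5 library), and the 966 in neural tissue against LM and CF were 596 (without LM replicate 1) to 1003. Of pairs tested for strength, 97 were called at E12.5 (25 to 104 without single libraries, lowest without LM replicate 2) and 249 in FB (108 after centring, 44 to 350 without single libraries, lowest without FB E12.5 replicate 1). The CTCF fit of neural against non-neural tissues called 1 of 28294 sites in the lists compared, against 0. Alpha and beta bins had too few calls in the libraries to be tested, and the part of depth in this was not tested.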
